A study of Mus musculus with 12 samples.

Results

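The genes described here are 35 genes of T cells and natural killer (NK) cells, of 25700 genes in the count table, read in preparations of mouse liver macrophages. They were chosen as a list by name, with earlier results of these data known. Their share of calls beside that of all genes is thus a description only. All 35 had counts, and they fall into 9 NK cell receptors, 6 genes of the killing granule, 2 secreted cytokines, 4 cytokine receptors and transcription factors, 6 CD3 chains and coreceptors and 8 signalling or adhesion genes of both cell types. RNA sequencing covered 12 libraries in 4 groups of 3: Spta sph/sph mice given an agonistic antibody to CD40 (sph/sph anti-CD40), Spta wt/wt littermates given the same antibody (WT anti-CD40), Spta sph/sph mice given saline (sph/sph saline) and Spta wt/wt littermates given saline (WT saline). The antibody dose was 20 mg/kg by intraperitoneal injection, cells were taken 30 h later, and the mice were labelled as males of 8 to 10 weeks. The sph allele lies in the gene of alpha spectrin, a protein of the red cell skeleton, and homozygous mice have fragile red cells and haemolytic anaemia. Cells of the digested liver were enriched with magnetic beads for F4/80, the product of the macrophage gene Adgre1, so the preparations were not sorted and no step selected lymphocytes.

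NK cells and CD8 T cells kill other cells by releasing granules that hold perforin, which opens the membrane of the target, and granzymes, the proteases that enter through it. NK cells read their targets through activating and inhibiting receptors encoded in large gene clusters, whereas T cells read theirs through an antigen receptor that signals through the CD3 chains. The kinases and adaptors behind these receptors are partly shared between both cell types, which are both residents of the normal liver. Macrophages and dendritic cells engaged through CD40 make interleukin-12, the cytokine that drives NK and T cells to make interferon-gamma, which in turn activates macrophages.

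Anti-CD40 raised most of the 35 genes in WT mice, and in sph/sph mice no member passed the test. Of 33 members that could be tested, 30 were called higher in WT anti-CD40 than in WT saline, at a median log2 fold of 6.61 over the 33; of all 13844 genes tested, 19.4% were called higher and 19.7% lower, with a median log2 fold of 0.05. In WT DESeq2 called the same 30 members, and limma-voom called 26, without Cd2, Eomes, Klrb1c and Ncr1. In sph/sph mice edgeR called 0 of 33 members, against 0.578% of all genes called higher and 0.202% lower. The members' median log2 fold was 2.38 there. Of the 33 members 14 had an unadjusted p under 0.05, against 2901 of all 13844 genes tested. DESeq2 called 8 members higher, and limma-voom and the repeats without sph/sph anti-CD40 C or without the 4 A libraries called 0. Under anti-CD40, 20 of the 33 were called lower in sph/sph than in WT at a median log2 fold of -3.76, against 6.19% of all genes called lower and 11.5% called higher. Under saline, 1 member was called higher in sph/sph, where 1.6% of all genes were called higher and 0.433% lower. The response of sph/sph mice was called smaller than that of WT mice for 3 members, against 1.12% of all genes called lower and 3.18% called higher in this interaction. A gene was called at an adjusted p under 0.05, from edgeR's quasi-likelihood test with Benjamini-Hochberg adjustment over all genes tested. Of the 33 tested members, 12 reached the level needed for testing (0.609 CPM in at least 3 libraries) only through the WT anti-CD40 libraries, and Klra4 and Klra8 did not reach it. The 12 were Klra7, Klrb1c, Klrg1, Ncr1, Gzmc, Gzmk, Ifng, Xcl1, Eomes, Cd3d, Cd8b1 and Txk.

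The summed level of the 35 genes is given in CPM (counts after every library is brought to the same total). It was 176, 61.6 and 273 CPM in sph/sph anti-CD40 A, B and C, and 544, 3792 and 1511 CPM in WT anti-CD40 A, B and C. It was 71.0, 76.5 and 67.7 CPM across the sph/sph saline libraries A, B and C, and 109, 83.7 and 118 CPM across the WT saline libraries A, B and C. Under saline Klrk1 and Cd4 set the order of the genotypes: without both the sum averaged 27.6 ± 13.1 CPM in sph/sph saline and 15.6 ± 3.16 CPM in WT saline (SD, n = 3 each). All WT anti-CD40 libraries lay above all others, and the spread within that group was wide, with B far above A. The same library order held for nearly every member: B was the highest WT anti-CD40 library for 35 of 35 members and A the lowest for 34, Klrk1 being the exception. In sph/sph anti-CD40, B was the lowest library for 33 members, and C the highest for 25. No share over all genes goes with these counts of library order, so they cannot be read as particular to the members. In a bulk preparation, fewer cells of a type and less RNA per cell cannot be told apart, and no cell count goes with these libraries.

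Depth ran from 14991250 to 18984067 counts per library. RNA of the bead target and of Kupffer cell markers held in 3 groups and less in the fourth. Adgre1, the gene of the bead target, had 1177, 2236 and 1101 CPM in sph/sph anti-CD40 A, B and C, against 173, 51.4 and 39.8 CPM in WT anti-CD40 A, B and C. Saline libraries had 1429 to 1906 CPM in sph/sph and 1578 to 1941 CPM in WT. The summed level of 10 Kupffer cell markers ran from 21610 to 39110 CPM in sph/sph anti-CD40 and from 580.5 to 1244 CPM in WT anti-CD40, and from 33810 to 48110 CPM in sph/sph saline and 27970 to 32760 CPM in WT saline. The T and NK cell genes were thus highest in the group with the least Adgre1 and Kupffer cell RNA. Whether the bead enrichment changed with the target's level was not tested. Over 8 markers of macrophages in general the sums were 16260, 17010 and 8902 CPM in sph/sph anti-CD40 A, B and C. In WT anti-CD40 A, B and C they were 16100, 10560 and 7986 CPM, so these groups overlapped. Saline libraries had 13450 to 17800 CPM in sph/sph and 16610 to 19140 CPM in WT. Of these 8 markers 5 were called lower with anti-CD40 in WT. The sph/sph anti-CD40 C library stood apart, with 3354 CPM over 10 B cell markers against 115 to 612 CPM in the other 11 libraries, and 193 CPM over 6 basophil and mast cell markers against 2.21 to 70.9 CPM in the others. The A library of each group had 0 counts over 4 Y chromosome genes, against 133 to 225 CPM in B and C, although all mice are labelled male. The sph/sph anti-CD40 C library also had the lowest sum of all 12 over 17 genes of signals to T and NK cells, 308 CPM against 360 to 539 CPM in the saline libraries and at least 1848 CPM in the other anti-CD40 libraries, and whether it was treated as labelled cannot be told from the files. Counts of calls are given without this library or without the A libraries where they moved by over 1.5 times. Without the A libraries 2 libraries a group remain. Shares over all genes are given for the fit of all 12 libraries only. A count that moved in a repeat can thus not be read as particular to the members or a list.

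**Figure D1:**
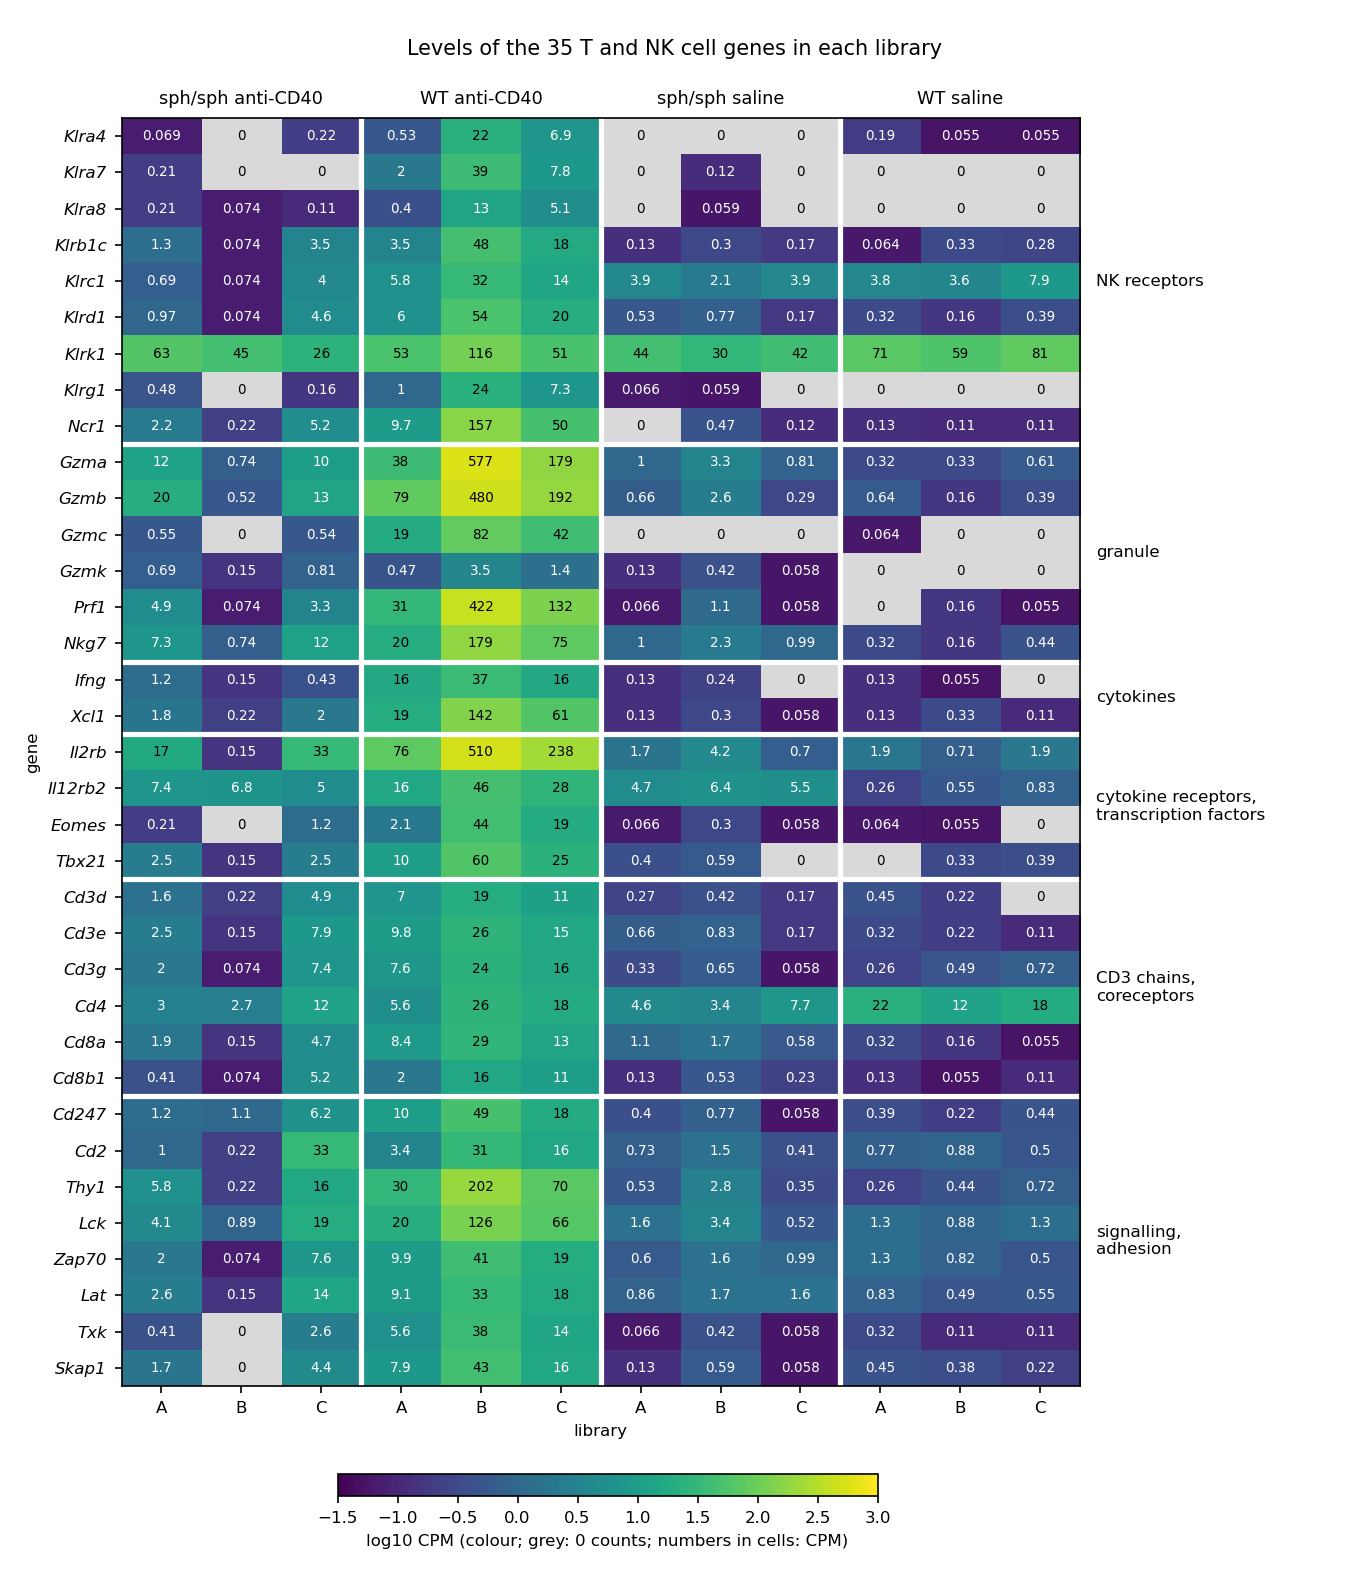
Heat map of the 35 genes (rows, ordered by role) in the 12 libraries (columns A to C of each group), coloured by log10 CPM and with the CPM in each cell; grey cells have 0 counts. The WT anti-CD40 columns are brightest in nearly every row, from 0.399 CPM (Klra8 in A) to 577 CPM (Gzma in B), and Klrk1 is bright in all columns.

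Among the genes of the killing granule, Gzma and Gzmb had the highest levels per kb of exon of all members in WT anti-CD40 and Gzmk the lowest. All 6 were called higher with anti-CD40 in WT, none was called in sph/sph, and 5 were called lower in sph/sph than in WT under anti-CD40, or 3 without the 4 A libraries, where the calls of Gzmb and Nkg7 were lost. Gzma, which encodes granzyme A, had 12.1, 0.739 and 9.98 CPM in sph/sph anti-CD40 A, B and C, against 37.9, 577 and 179 CPM in WT anti-CD40 A, B and C. Its level ran from 0.814 to 3.32 CPM in sph/sph saline and 0.321 to 0.609 CPM in WT saline. All WT anti-CD40 libraries lay above all sph/sph anti-CD40 libraries, and sph/sph anti-CD40 B lay within the saline range. The log2 fold of anti-CD40 over saline was 2.15 ± 1.07 (adjusted p = 0.277) in sph/sph and 9.26 ± 1.42 (adjusted p = 0.000878) in WT, and that of sph/sph over WT under anti-CD40 was -5.11 ± 1.13 (adjusted p = 0.0126). The ± behind a log2 fold is its SE throughout.

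Gzmb, which encodes granzyme B, the protease that starts cell death through caspases, had 20.4, 0.517 and 13.3 CPM in sph/sph anti-CD40 A, B and C, against 78.9, 480.1 and 192 CPM in WT anti-CD40 A, B and C. Its level ran from 0.291 to 2.55 CPM in sph/sph saline and 0.165 to 0.642 CPM in WT saline. The libraries fell in the same order as for Gzma, with sph/sph anti-CD40 B again at the saline level. Its log2 fold with anti-CD40 was 3.27 ± 1.15 (adjusted p = 0.153) in sph/sph and 9.30 ± 1.46 (adjusted p = 0.000993) in WT, and sph/sph over WT under anti-CD40 came to -4.45 ± 1.11 (adjusted p = 0.0215), a call that was lost without WT anti-CD40 B. Prf1, the gene of perforin, had 4.9, 0.0739 and 3.34 CPM in sph/sph anti-CD40 A, B and C, against 30.5, 422 and 132 CPM in WT anti-CD40 A, B and C. Its level ran from 0.0582 to 1.13 CPM in sph/sph saline and 0 to 0.165 CPM in WT saline. Groups under anti-CD40 did not overlap, and sph/sph over WT was -6.12 ± 1.28 (adjusted p = 0.00997); the WT response was 11.17 ± 1.76 and the sph/sph response 2.7 ± 1.36 (adjusted p = 0.28).

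Gzmc, a granzyme gene of strongly activated killer cells, had 1 count in all over the 3 WT saline libraries and 0 over the 3 sph/sph saline libraries. Under anti-CD40 it had 0.552, 0 and 0.539 CPM in sph/sph anti-CD40 A, B and C, against 18.9, 82.2 and 42.4 CPM in WT anti-CD40 A, B and C. All WT anti-CD40 libraries thus stood far above every other library. The count ratio of WT anti-CD40 to WT saline was 2580, with a 95% counting interval of 463 to 102000, and sph/sph over WT under anti-CD40 was -6.96 ± 0.95 (adjusted p = 0.00215). In sph/sph the level under anti-CD40 was at least 6.33-fold that under saline against a floor of 3 counts (adjusted p = 0.151). Nkg7, a membrane protein of the granules, had 7.25, 0.739 and 11.8 CPM in sph/sph anti-CD40 A, B and C, against 19.7, 179 and 75.3 CPM in WT anti-CD40 A, B and C. Its level ran from 0.989 to 2.31 CPM in sph/sph saline and 0.165 to 0.443 CPM in WT saline. The WT anti-CD40 libraries were again the highest, and sph/sph anti-CD40 B lay at the saline level. Nkg7 changed by 8.17 ± 1.22 (adjusted p = 0.000749) in WT with anti-CD40 and by -3.78 ± 0.94 (adjusted p = 0.0209) in sph/sph over WT under anti-CD40. Gzmk, the gene of granzyme K, which marks a less cytotoxic memory state of CD8 T cells, stood apart from the rest of the granule genes. It had 0.691, 0.148 and 0.809 CPM in sph/sph anti-CD40 A, B and C, against 0.465, 3.52 and 1.43 CPM in WT anti-CD40 A, B and C, so that the groups overlapped, and sph/sph over WT was -1.69 ± 0.92 (adjusted p = 0.253). WT saline had no Gzmk count, so anti-CD40 raised it at least 32.7-fold in WT, taking 3 counts over the group as the floor, and the sph/sph response was 1.42 ± 1.01 (adjusted p = 0.445).

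The windows before the starts of 4 of these genes are shown because their levels moved together over the libraries. They hold the 250 bases before a RefSeq start on GRCm38.p6, at chr7:4337465-4337714 on the plus strand for the NK cell receptor gene Ncr1, chr10:61297586-61297835 on the plus strand for Prf1, chr14:56262335-56262584 on the minus strand for Gzmb and chr7:43436888-43437137 on the plus strand for Nkg7, each written 5′ to 3′ along the gene. Capitals mark TGTGGT or its complement ACCACA, the core bound by RUNX factors, and in Nkg7 also AGGTGTGA, a T-box motif of the kind bound by T-bet and Eomes, which lay 14 bases before the start.
Ncr1: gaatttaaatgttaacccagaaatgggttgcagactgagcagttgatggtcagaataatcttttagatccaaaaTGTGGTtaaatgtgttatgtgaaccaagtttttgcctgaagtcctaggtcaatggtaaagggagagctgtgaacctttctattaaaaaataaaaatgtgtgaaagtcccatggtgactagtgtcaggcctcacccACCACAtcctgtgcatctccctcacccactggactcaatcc
Prf1: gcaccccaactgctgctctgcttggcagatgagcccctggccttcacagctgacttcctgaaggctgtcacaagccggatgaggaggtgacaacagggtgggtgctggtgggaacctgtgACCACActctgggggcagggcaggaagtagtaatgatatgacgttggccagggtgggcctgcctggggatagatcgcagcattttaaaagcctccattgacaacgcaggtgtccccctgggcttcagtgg
Gzmb: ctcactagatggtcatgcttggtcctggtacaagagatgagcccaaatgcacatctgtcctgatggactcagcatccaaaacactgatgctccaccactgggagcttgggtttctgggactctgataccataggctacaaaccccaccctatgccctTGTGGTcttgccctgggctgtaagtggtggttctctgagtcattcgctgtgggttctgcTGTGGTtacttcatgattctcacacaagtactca
Nkg7: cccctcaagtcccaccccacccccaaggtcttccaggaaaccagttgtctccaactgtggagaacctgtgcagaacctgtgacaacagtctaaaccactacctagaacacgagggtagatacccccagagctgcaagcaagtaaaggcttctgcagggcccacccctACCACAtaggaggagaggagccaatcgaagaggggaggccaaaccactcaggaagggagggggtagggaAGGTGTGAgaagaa
Of the 35 genes 27 had a RefSeq window, reaching from 250 bases before to 50 bases after the start. Searched on both strands, AGGTGTGA was in the windows of 1 of the 27 (3.7%), Nkg7, against 1.48% of 27025 genes with a window. TGTGGT was in those of 14 of the 27 (51.9%), against 18.9% of all genes with a window, and the motifs did not overlap in Nkg7. By role it was found for 5 of 6 granule genes, 4 of 7 NK cell receptors, 4 of 5 signalling and adhesion genes, 1 of 2 secreted cytokines, 0 of 3 cytokine receptors and transcription factors and 0 of 4 CD3 chains and coreceptors. The RUNX core was picked after the levels and windows had been seen, and a match says only that the letters are there.

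NK cell receptor genes split into a large set that followed the granule genes and 2 members, Klrk1 and Klrc1, that did not. Of 7 tested receptors 5 were called higher with anti-CD40 in WT, 0 in sph/sph, and 6 were called lower in sph/sph than in WT under anti-CD40. The last count was 0 with limma-voom and 6 with DESeq2, and without the 4 A libraries the calls of Ncr1, Klrb1c, Klrd1 and Klrc1 were lost. In WT limma-voom called 3 receptors higher with anti-CD40. It did not call Ncr1 (adjusted p = 0.0745) or Klrb1c (adjusted p = 0.0592) there. Ncr1, which encodes the activating receptor NKp46 and marks mouse NK cells, had 2.21, 0.222 and 5.18 CPM in sph/sph anti-CD40 A, B and C, against 9.7, 157 and 49.8 CPM in WT anti-CD40 A, B and C. Its level ran from 0 to 0.475 CPM in sph/sph saline and 0.11 to 0.129 CPM in WT saline. Each WT anti-CD40 library lay above every other library, and sph/sph anti-CD40 B lay within the range of the saline libraries. Ncr1 changed by 9.19 ± 1.51 (adjusted p = 0.00124) in WT with anti-CD40, its log2 fold in sph/sph was 3.63 ± 1.34 (adjusted p = 0.167), and it was -4.80 ± 1.14 (adjusted p = 0.0172) in sph/sph over WT under anti-CD40; the last call was lost without WT anti-CD40 B and without sph/sph anti-CD40 A.

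Klrb1c, the gene of NK1.1, averaged 1.61 ± 1.71 CPM in sph/sph anti-CD40 and 23 ± 22.6 CPM in WT anti-CD40 (SD, n = 3 each), and sph/sph over WT was -3.80 ± 1.09 (adjusted p = 0.0371). Klrd1, the gene of CD94, the shared partner of the NKG2 receptors, averaged 1.89 ± 2.42 CPM in sph/sph anti-CD40 and 26.7 ± 24.7 CPM in WT anti-CD40 (SD, n = 3 each), and sph/sph over WT was -3.79 ± 1.11 (adjusted p = 0.0397). Both genes were called higher with anti-CD40 in WT, with log2 folds of 6.61 ± 1.30 and 6.49 ± 1.30, and in sph/sph their log2 folds were 2.97 ± 1.22 (adjusted p = 0.203) and 1.96 ± 1.14 (adjusted p = 0.343). Klrg1, an inhibiting receptor of mature NK and effector T cells, averaged 0.215 ± 0.246 CPM in sph/sph anti-CD40 and 10.8 ± 11.9 CPM in WT anti-CD40 (SD, n = 3 each), and sph/sph over WT was -5.60 ± 1.35 (adjusted p = 0.0248). It had 0 counts in WT saline, so the WT response was at least 198-fold (adjusted p = 0.00417). The Ly49 receptors, which read class I MHC molecules in the mouse, were close to silent outside WT anti-CD40. Klra7, an inhibiting Ly49 gene, had 0.207, 0 and 0 CPM in sph/sph anti-CD40 A, B and C, against 1.99, 39.2 and 7.83 CPM in WT anti-CD40 A, B and C, and the WT response was at least 297-fold (adjusted p = 0.00385) above a WT saline total of 0. On its 3 counts in sph/sph anti-CD40, sph/sph over WT was a count ratio of 0.00374, with a 95% counting interval of 0.000771 to 0.011 (adjusted p = 0.0131). Klra8, the activating receptor Ly49H, had 0.207, 0.0739 and 0.108 CPM in sph/sph anti-CD40 A, B and C, against 0.399, 13.3 and 5.07 CPM in WT anti-CD40 A, B and C, at least 115-fold above WT saline. Klra4, the activating receptor Ly49D, had 0.0691, 0 and 0.216 CPM in sph/sph anti-CD40 A, B and C, against 0.532, 22.4 and 6.94 CPM in WT anti-CD40 A, B and C, with 5 counts in all in WT saline and 0 in sph/sph saline. These 3 genes thus showed counts of note in WT anti-CD40 alone, mainly in B and C. Of all 50-base stretches of their exons, 12.3% in Klra7, 33.1% in Klra8 and 4.68% in Klra4 also occur in other genes, mainly Ly49 genes and pseudogenes, as do 17.0% in Klrb1c, so their counts are uncertain.

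Klrk1, the gene of the activating receptor NKG2D, was high in every library and did not follow the other NK genes. It had 63.2, 45.4 and 25.8 CPM in sph/sph anti-CD40 A, B and C, against 52.6, 116 and 51.0 CPM in WT anti-CD40 A, B and C. Under saline it had 44.3, 30.5 and 41.8 CPM across the sph/sph saline libraries A, B and C, against 71.5, 58.8 and 81.2 CPM across the WT saline libraries A, B and C. Of the pairs of groups tested, only the saline groups did not overlap, every sph/sph library lying below every WT library. The log2 fold with anti-CD40 was 0.20 ± 0.37 (adjusted p = 0.792) in sph/sph and 0.05 ± 0.37 (adjusted p = 0.925) in WT, and that of sph/sph over WT was -0.71 ± 0.37 (adjusted p = 0.23) under anti-CD40 and -0.86 ± 0.37 (adjusted p = 0.365) under saline. Klrc1, which encodes the inhibiting receptor NKG2A, also had a level under saline that the other NK genes lacked. It had 0.691, 0.0739 and 4.04 CPM in sph/sph anti-CD40 A, B and C, against 5.85, 32.5 and 14.1 CPM in WT anti-CD40 A, B and C. Under saline it had 3.92, 2.14 and 3.9 CPM across the sph/sph saline libraries A, B and C, against 3.79, 3.62 and 7.87 CPM across the WT saline libraries A, B and C. Sph/sph anti-CD40 A and B lay below all saline libraries, and the WT anti-CD40 libraries overlapped the WT saline ones. The log2 fold of anti-CD40 over saline was -1.01 ± 0.96 (adjusted p = 0.568) in sph/sph and 1.78 ± 0.94 (adjusted p = 0.155) in WT, and sph/sph over WT under anti-CD40 was -3.41 ± 1.01 (adjusted p = 0.0426). Klrc1 shares 38.6% of its 50-base stretches with Klrc2 and Klrc3, so its counts are uncertain.

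Both secreted cytokines were nearly absent except in WT anti-CD40. Ifng, the gene of interferon-gamma, had 1.24, 0.148 and 0.431 CPM in sph/sph anti-CD40 A, B and C, against 16.1, 37.0 and 16.5 CPM in WT anti-CD40 A, B and C. Its level ran from 0 to 0.237 CPM in sph/sph saline and 0 to 0.129 CPM in WT saline. A and C of WT anti-CD40 were alike and B was higher, and all 3 lay above all other libraries. The count ratio of WT anti-CD40 to WT saline was 408, with a 95% counting interval of 139 to 1980, and the log2 fold of sph/sph over WT under anti-CD40 was -5.24 ± 0.86 (adjusted p = 0.00277). Xcl1, a chemokine of NK and CD8 T cells that draws cross-presenting dendritic cells, had 1.79, 0.222 and 2.00 CPM in sph/sph anti-CD40 A, B and C, against 19.1, 142 and 60.5 CPM in WT anti-CD40 A, B and C. Its level ran from 0.0582 to 0.297 CPM in sph/sph saline and 0.111 to 0.33 CPM in WT saline. It changed by 8.53 ± 1.05 (adjusted p = 0.000258) in WT and its log2 fold in sph/sph was 3.00 ± 1.04 (adjusted p = 0.149); sph/sph over WT under anti-CD40 was -5.76 ± 0.88 (adjusted p = 0.00194), the lowest adjusted p among the members in that comparison. Of the 50-base stretches of Ifng 19.9% also belong to an overlapping annotated transcript, Gm49751, and an exon of Gm20743 overlaps Xcl1 on the other strand.

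The 4 cytokine receptors and transcription factors were all called higher with anti-CD40 in WT and lower in sph/sph than in WT under anti-CD40, although without the 4 A libraries only Il12rb2 kept the second call. With limma-voom Eomes was called in neither comparison (adjusted p = 0.068 in WT). Il2rb, which encodes the receptor chain for interleukin-2 and interleukin-15 on NK and memory T cells, had 17.1, 0.148 and 32.7 CPM in sph/sph anti-CD40 A, B and C, against 75.7, 510.2 and 238 CPM in WT anti-CD40 A, B and C. Its level ran from 0.698 to 4.21 CPM in sph/sph saline and 0.714 to 1.94 CPM in WT saline. The anti-CD40 groups did not overlap, and sph/sph over WT was -4.04 ± 1.23 (adjusted p = 0.0465), a call that was lost in 9 of 12 repeats that each left out 1 library. Tbx21 and Eomes encode T-bet and Eomesodermin, the T-box factors that direct the killing program of NK and CD8 T cells. Tbx21 averaged 1.72 ± 1.36 CPM in sph/sph anti-CD40 and 31.6 ± 25.5 CPM in WT anti-CD40 (SD, n = 3 each), and sph/sph over WT was -4.18 ± 1.11 (adjusted p = 0.0276). Eomes had 0.207, 0 and 1.24 CPM in sph/sph anti-CD40 A, B and C, against 2.06, 44.1 and 18.7 CPM in WT anti-CD40 A, B and C, and sph/sph over WT was -5.39 ± 1.28 (adjusted p = 0.0172). It had 2 counts in all in WT saline, which put the WT response at a count ratio of 596, with a 95% counting interval of 165 to 4930. WT anti-CD40 A was the lowest of its group for both, and its Eomes level of 2.06 CPM was close to the 1.24 CPM of sph/sph anti-CD40 C.

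Il12rb2, the signalling chain of the interleukin-12 receptor, had a pattern of its own over the groups, with similar levels in all sph/sph libraries. It had 7.39, 6.8 and 4.96 CPM in sph/sph anti-CD40 A, B and C, against 15.6, 46.4 and 28.1 CPM in WT anti-CD40 A, B and C. Under saline it had 4.65, 6.41 and 5.53 CPM across the sph/sph saline libraries A, B and C, against 0.257, 0.549 and 0.831 CPM across the WT saline libraries A, B and C. Every WT saline library thus lay below every other library, and the sph/sph libraries stayed within 4.65 to 7.39 CPM with or without anti-CD40. Il12rb2 rose with anti-CD40 in WT by 5.75 ± 0.51 (adjusted p = 4.2e-05), while its log2 fold in sph/sph was 0.21 ± 0.41 (adjusted p = 0.81). It was called higher in sph/sph than in WT under saline, by 3.31 ± 0.47 (adjusted p = 0.00681), and lower under anti-CD40, by -2.23 ± 0.42 (adjusted p = 0.0057). In sph/sph anti-CD40 B, where Gzma, Ncr1 and Cd3e were at 0.739, 0.222 and 0.148 CPM, Il12rb2 was at 6.80 CPM. The summed level of 8 erythroid markers, which are expected of neither macrophages nor lymphocytes, moved with the genotype: it ran from 4020 to 14880 CPM in sph/sph anti-CD40 and from 29.7 to 183 CPM in WT anti-CD40, and from 4853 to 8198 CPM in sph/sph saline and 64.4 to 289 CPM in WT saline. The part of these cells in the Il12rb2 level was not tested. An exon of Serbp1 overlaps Il12rb2 on the other strand, and Serbp1 had 269, 209 and 202 CPM in sph/sph anti-CD40 A, B and C, against 213, 325 and 277 CPM in WT anti-CD40 A, B and C. Under saline it had 173 to 192 CPM in sph/sph and 145 to 152 CPM in WT. Serbp1 thus had the same order as Il12rb2 over the WT anti-CD40 libraries and also lay higher in sph/sph than in WT under saline; its part in the Il12rb2 counts was not tested.

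CD3 chains rose with anti-CD40 in WT as the NK genes did, but no CD3 or coreceptor gene passed edgeR's test between genotypes. Of the 6 genes 5 were called higher with anti-CD40 in WT, 0 were called in sph/sph and 0 between genotypes under anti-CD40, where Cd3d, Cd3e, Cd3g and Cd8a had an unadjusted p under 0.05, DESeq2 called Cd3d and Cd8a lower, and limma-voom called Cd3d, Cd3e and Cd8a lower. In that comparison 4337 of all 13844 genes tested had an unadjusted p under 0.05. Without the 4 A libraries Cd3g was not called in WT. Cd3e, an invariant chain of the T cell receptor complex, had 2.49, 0.148 and 7.93 CPM in sph/sph anti-CD40 A, B and C, against 9.84, 26.4 and 14.9 CPM in WT anti-CD40 A, B and C. Its level ran from 0.174 to 0.831 CPM in sph/sph saline and 0.111 to 0.321 CPM in WT saline. The anti-CD40 groups did not overlap, but sph/sph anti-CD40 C came within 2 CPM of WT anti-CD40 A. Sph/sph over WT was -2.26 ± 0.95 (adjusted p = 0.131), the WT response was 6.27 ± 1.2 (adjusted p = 0.00286) and the sph/sph response was 2.66 ± 1.02 (adjusted p = 0.181). The other chains moved alike: Cd3d averaged 2.24 ± 2.41 CPM in sph/sph anti-CD40 and 12.6 ± 6.24 CPM in WT anti-CD40 (SD, n = 3 each) with sph/sph over WT at -2.48 ± 0.95 (adjusted p = 0.104). Cd3g averaged 3.17 ± 3.82 CPM in sph/sph anti-CD40 and 16.1 ± 8.46 CPM in WT anti-CD40 (SD, n = 3 each) with sph/sph over WT at -2.33 ± 1.05 (adjusted p = 0.159).

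Cd8a and Cd8b1 encode the chains of CD8, the coreceptor of killer T cells. Cd8a had 1.86, 0.148 and 4.69 CPM in sph/sph anti-CD40 A, B and C, against 8.44, 28.7 and 13.4 CPM in WT anti-CD40 A, B and C. Its level ran from 0.582 to 1.66 CPM in sph/sph saline and 0.0554 to 0.321 CPM in WT saline, so that the saline groups did not overlap, at a log2 fold of 2.62 ± 1.07 (adjusted p = 0.323). Sph/sph over WT under anti-CD40 was -2.90 ± 0.91 (adjusted p = 0.0522) for Cd8a and -2.30 ± 1.14 (adjusted p = 0.2) for Cd8b1, which averaged 1.91 ± 2.88 CPM in sph/sph anti-CD40 and 9.52 ± 7.02 CPM in WT anti-CD40 (SD, n = 3 each). The coreceptor of helper T cells behaved otherwise. Cd4 had 3.04, 2.66 and 12.4 CPM in sph/sph anti-CD40 A, B and C, against 5.58, 26.5 and 18.5 CPM in WT anti-CD40 A, B and C. Under saline it had 4.59, 3.38 and 7.68 CPM across the sph/sph saline libraries A, B and C, against 22.4, 12.4 and 18.3 CPM across the WT saline libraries A, B and C. All sph/sph saline libraries lay below all WT saline libraries, and WT anti-CD40 overlapped WT saline. Its log2 fold was -0.07 ± 0.66 (adjusted p = 0.946) with anti-CD40 in WT, 0.22 ± 0.67 (adjusted p = 0.881) in sph/sph and -1.76 ± 0.68 (adjusted p = 0.289) between genotypes under saline. Together, Klrk1 and Cd4 made up 84.1% to 85.8% of the summed level of the 35 genes in the WT saline libraries, against 3.74% to 10.7% in WT anti-CD40, and in the sph/sph saline libraries they made up 44.3% to 73.1%.

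Without sph/sph anti-CD40 C, the library with high B cell markers, 33 of 35 members were called lower in sph/sph than in WT under anti-CD40 (all but Klrk1 and Gzmk), among them all 6 CD3 and coreceptor genes. Klra4 and Klra8, not tested with all 12 libraries, could be tested here only through their level in WT anti-CD40. The log2 folds were then -3.68 for Cd3e (adjusted p = 0.0227) and -2.56 for Cd4 (adjusted p = 0.02). The difference between NK and CD3 genes in what passed edgeR's test thus ended without this library. It also depended on the test, since with all 12 libraries limma-voom called 0 NK cell receptors and 3 CD3 or coreceptor genes lower. In it the NK cell receptors were at a median of 10.4% of their level in WT anti-CD40 C and the granule genes at 6.26%, whereas the CD3 and coreceptor genes were at 47.5% and the signalling and adhesion genes at 31.3%; the libraries C of the groups are not a pair.

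The 8 signalling and adhesion genes of both cell types were all called higher with anti-CD40 in WT, and 3 of them, Cd247, Thy1 and Txk, were called lower in sph/sph than in WT under anti-CD40. Without the 4 A libraries 4 were called in WT, the calls of Zap70, Lat, Skap1 and Cd2 being lost, and 0 between genotypes. Cd247, the zeta chain that serves the T cell receptor and NK receptors alike, had 1.24, 1.11 and 6.2 CPM in sph/sph anti-CD40 A, B and C, against 10.2, 49.0 and 18.5 CPM in WT anti-CD40 A, B and C, and sph/sph over WT was -3.17 ± 0.86 (adjusted p = 0.0307). Thy1, a surface protein of T cells and activated NK cells, had 5.8, 0.222 and 16 CPM in sph/sph anti-CD40 A, B and C, against 30.1, 202 and 70.5 CPM in WT anti-CD40 A, B and C, and sph/sph over WT was -3.76 ± 1.16 (adjusted p = 0.049). Txk, a Tec family kinase of T and NK cells, averaged 1.00 ± 1.39 CPM in sph/sph anti-CD40 and 19.1 ± 16.5 CPM in WT anti-CD40 (SD, n = 3 each), and sph/sph over WT was -4.20 ± 1.19 (adjusted p = 0.036). In each of these genes the WT anti-CD40 libraries lay above all others. Lck, the kinase that starts T cell receptor signalling, averaged 8.05 ± 9.78 CPM in sph/sph anti-CD40 and 71.0 ± 53.1 CPM in WT anti-CD40 (SD, n = 3 each), with sph/sph over WT at -3.13 ± 1.01 (adjusted p = 0.0567). Zap70, the kinase recruited to the zeta chain, averaged 3.23 ± 3.91 CPM in sph/sph anti-CD40 and 23.6 ± 16.2 CPM in WT anti-CD40 (SD, n = 3 each), with sph/sph over WT at -2.85 ± 1.02 (adjusted p = 0.0829). For both genes every WT anti-CD40 library lay above all sph/sph anti-CD40 ones, for Lck narrowly, at 19.2 CPM in sph/sph C and 20.5 CPM in WT A. Lat, the membrane adaptor that Zap70 phosphorylates, averaged 5.65 ± 7.54 CPM in sph/sph anti-CD40 and 20.0 ± 12 CPM in WT anti-CD40 (SD, n = 3 each), with sph/sph over WT at -1.81 ± 1.00 (adjusted p = 0.25). Skap1, an adaptor for integrin activation, averaged 2.03 ± 2.2 CPM in sph/sph anti-CD40 and 22.1 ± 18.3 CPM in WT anti-CD40 (SD, n = 3 each), with sph/sph over WT at -3.42 ± 1.13 (adjusted p = 0.063). None of these 4 passed the test between genotypes.

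Cd2, an adhesion receptor of T and NK cells that mouse B cells carry as well, was the member with the smallest difference between genotypes under anti-CD40. It had 1.04, 0.222 and 32.9 CPM in sph/sph anti-CD40 A, B and C, against 3.39, 30.9 and 15.7 CPM in WT anti-CD40 A, B and C. The sph/sph anti-CD40 C library held the highest Cd2 level of all 12, at 6.34 Cd2 counts per Ncr1 count against 0.197 to 0.349 in the WT anti-CD40 libraries. Its 10 B cell markers summed to 3354 CPM, as given above, and their part in the Cd2 level was not tested. Sph/sph over WT was -0.54 ± 1.29 (adjusted p = 0.813), and without that library it was -4.70 (adjusted p = 0.0132). The WT response of Cd2, 4.53 ± 1.54 (adjusted p = 0.04), was the only call of the 30 that did not hold in all 12 repeats that left out 1 library; it was lost in 6 of them.

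**Figure D2:**
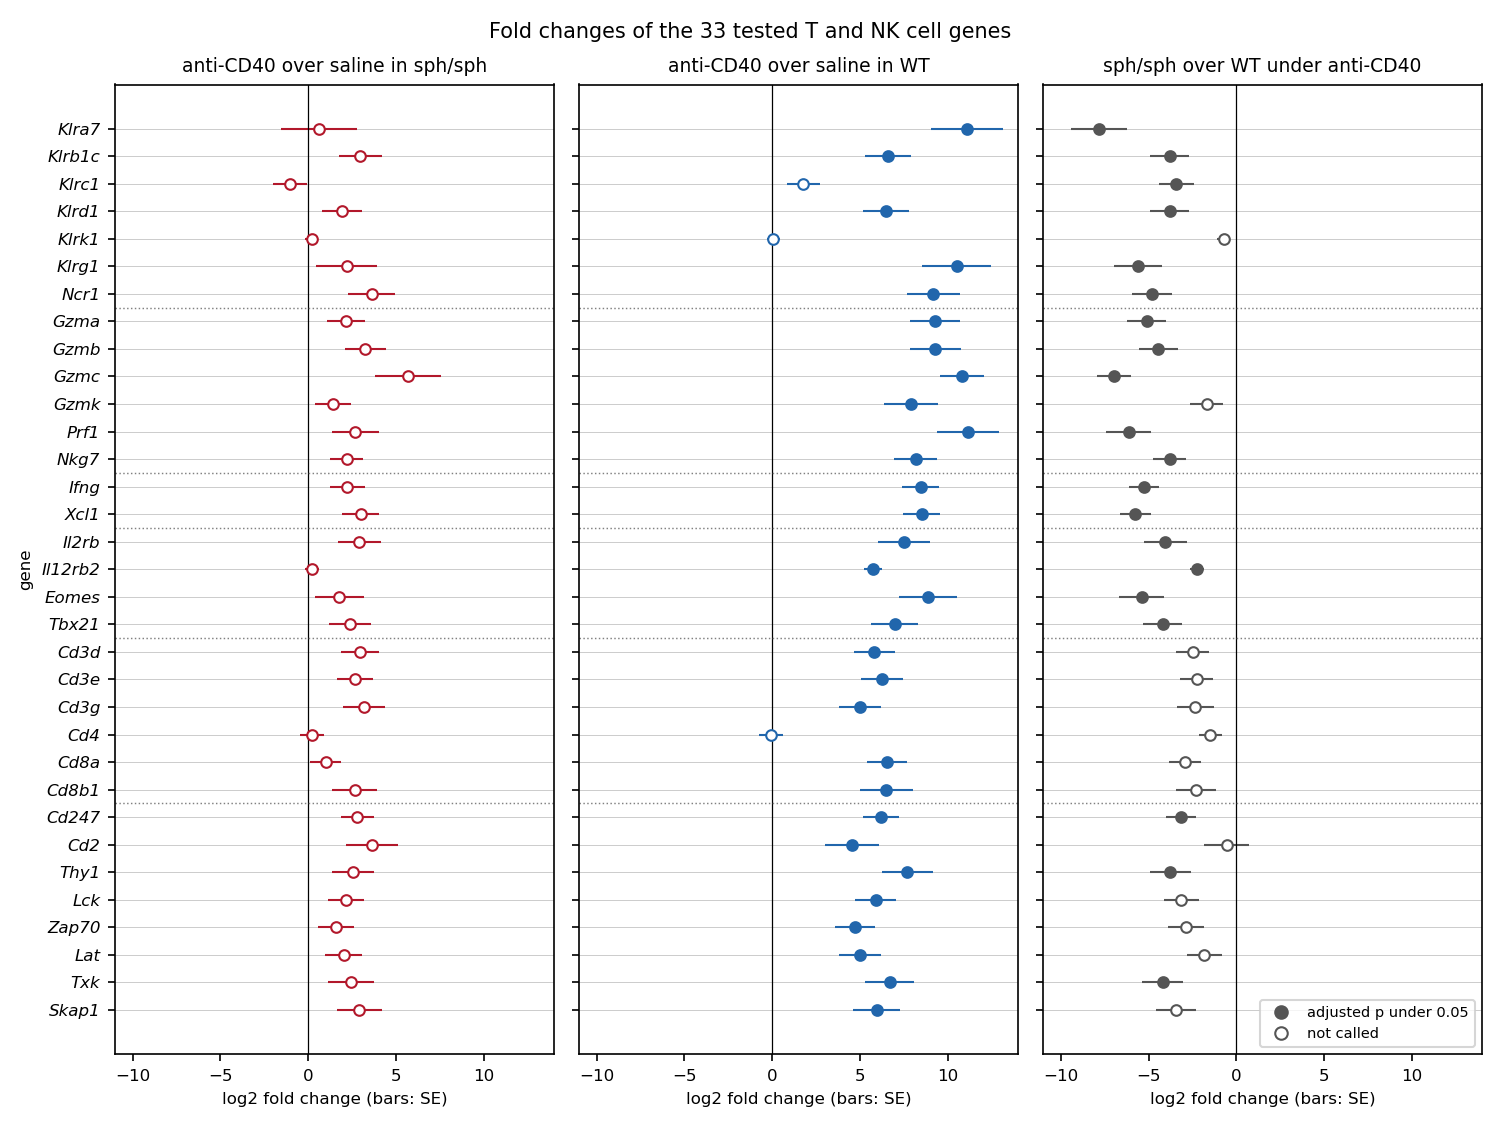
Log2 fold changes of the 33 tested members (rows, grouped by role) for anti-CD40 over saline in sph/sph, anti-CD40 over saline in WT, and sph/sph over WT under anti-CD40; bars are SE, filled points passed an adjusted p under 0.05. In WT 30 points are filled, in sph/sph 0, and between genotypes 20, none of them among the CD3 and coreceptor genes.

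NK and T cell genes did not keep a fixed proportion over the libraries. Counts of the 7 NK cell receptors other than Klrk1 and Klrc1, set against counts of the 3 CD3 chains, gave a ratio of 0.898, 1.00 and 0.678 in sph/sph anti-CD40 A, B and C, against 0.943, 5.09 and 2.7 in WT anti-CD40 A, B and C. The 95% counting intervals were 0.812 to 1.09 in WT anti-CD40 A, 4.80 to 5.4 in B and 2.5 to 2.92 in C, and 0.267 to 3.74 in sph/sph anti-CD40 B, which rests on 6 counts on either side. WT anti-CD40 B and C had the highest of these ratios, but the interval of sph/sph anti-CD40 B held the value of WT anti-CD40 C, and WT anti-CD40 A fell within the sph/sph range, so the groups overlapped. In saline libraries the ratio ran from 0.579 to 1.14 in sph/sph and from 0.688 to 1.00 in WT, on 7 to 32 CD3 counts. Granule genes per CD3 count were at 7.55, 5.00 and 1.96 in sph/sph anti-CD40 A, B and C, against 7.62, 24.8 and 14.6 in WT anti-CD40 A, B and C. These groups did not overlap, but the 95% counting intervals of the A libraries did, at 6.03 to 9.54 in sph/sph and 6.83 to 8.51 in WT. Klrk1 and Klrc1 were left out of the NK cell receptor ratio after their levels had been seen. With them that ratio was 11.4, 104 and 2.15 in sph/sph anti-CD40 A, B and C, and 3.33, 7.19 and 4.23 in WT anti-CD40 A, B and C. Sph/sph anti-CD40 A and B then lay above all WT anti-CD40 libraries.

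**Figure D3:**
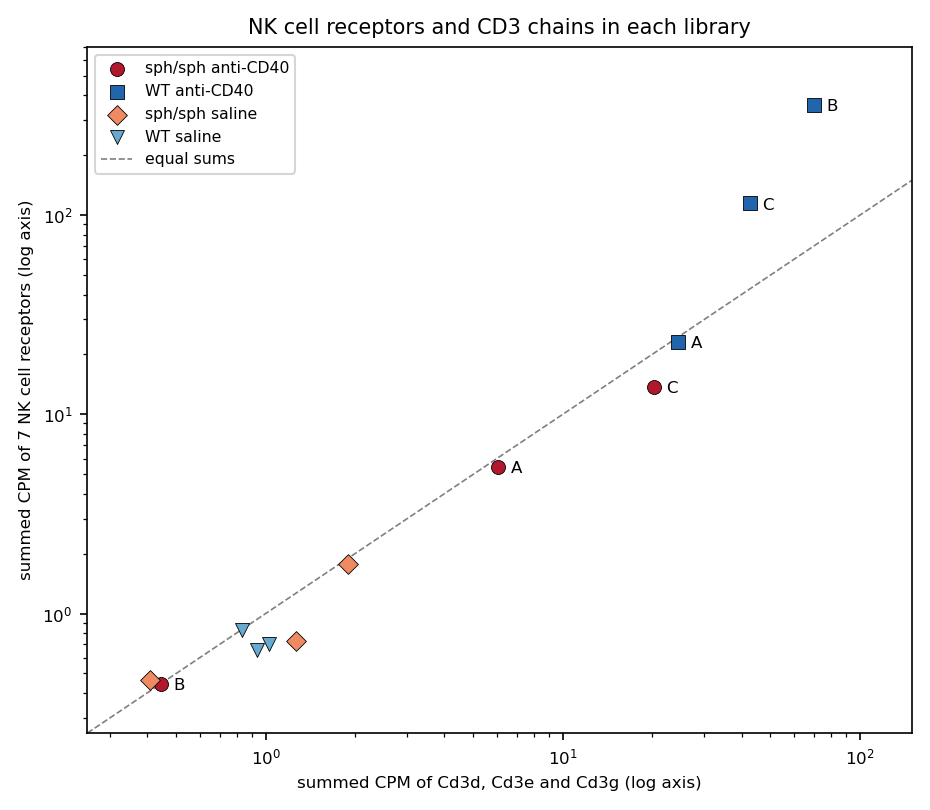
Summed CPM of 7 NK cell receptor genes (y axis, log) against summed CPM of Cd3d, Cd3e and Cd3g (x axis, log), 1 point per library, with letters for the anti-CD40 libraries and a dashed line where both sums are equal. WT anti-CD40 B and C lie above the line, at 358 and 115 CPM of NK receptors, and the other 10 libraries lie near it.

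Among WT anti-CD40 libraries the spread was widest for NK receptors. From A to B the level differed by a median of 16.1-fold over the 9 NK receptors (2.19 to 42.1), 8.33-fold over the 6 granule genes (4.35 to 15.2), 5.79-fold over the 8 signalling and adhesion genes (3.62 to 9.12) and 3.31-fold over the 6 CD3 and coreceptor genes (2.69 to 7.97). The granzymes also changed places: there were 2.08 Gzmb counts per Gzma count in WT anti-CD40 A, 0.832 in B and 1.07 in C. Cd8a counts per Cd4 count were 0.614, 0.0556 and 0.378 in sph/sph anti-CD40 A, B and C, against 1.51, 1.08 and 0.728 in WT anti-CD40. This ratio was 0.0758 to 0.491 in sph/sph saline and 0.00303 to 0.0143 in WT saline. The 2 sph/sph groups overlapped. All WT saline libraries had the lowest values, on 1 to 5 Cd8a counts a library. Cd4 did not follow the CD3 chains: WT saline had 904 Cd4 counts in all, against 11 of Cd3d, 11 of Cd3e and 26 of Cd3g. The ratio can thus not be read as a proportion of CD8 to CD4 T cells.

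Set per kb of exon so that genes can be compared, Gzma (263 CPM per kb), Gzmb (174), Xcl1 (141), Nkg7 (100.0) and Prf1 (75.3) had the highest mean levels in WT anti-CD40, and Gzmk (1.30) the lowest. In WT saline the order was another, with Klrk1 (9.82 CPM per kb), Cd4 (4.39) and Klrc1 (2.57) first and Gzma next at 0.418. In sph/sph anti-CD40 Gzmb (7.94), Gzma (7.56), Nkg7 (7.22), Cd2 (6.53) and Klrk1 (6.24) lay close together at the top, and in sph/sph saline Klrk1 led (5.41). The SD within a group was about as large as the mean for granule genes in WT anti-CD40, at 264 ± 279.5 CPM (SD, n = 3) for Gzma before division by length, so neighbours in the WT anti-CD40 order did not differ beyond their spread.

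The lower levels in sph/sph than in WT under anti-CD40 varied in how firmly they held. Calls of 7 of the 20 genes, Klra7, Gzma, Gzmc, Prf1, Ifng, Xcl1 and Il12rb2, held in all 12 repeats that each left out 1 library. Among these, Klra7, Gzmc, Ifng and Xcl1 could be tested only because of their level in WT anti-CD40. That their calls held is therefore no independent support for the difference. DESeq2 kept all 20 calls, whereas limma-voom kept 11, Klra7 not among them. With only the 6 libraries compared, 4 members were called. The count of members called lower fell to 7 without WT anti-CD40 B, to 11 without WT anti-CD40 C, to 9 without sph/sph anti-CD40 A and to 12 without sph/sph anti-CD40 B. Without the 4 A libraries 10 were called, 8 of the 20 and with them Klra4 and Klra8. Klra4 and Klra8 reached the level for testing in 2 WT anti-CD40 libraries and in 0 libraries of the other groups. Their calls are therefore no independent support either. No share over all genes goes with these repeats. Spread within the groups was wide on both sides, since sph/sph anti-CD40 B had nearly no member RNA beside Klrk1, Il12rb2 and Cd4, while A and C had some. Klrk1 alone made up 73.7% of the members' summed level in B, against 36.0% in A and 9.44% in C.

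Under saline the members other than Klrk1 and Cd4 were low in both genotypes. Il12rb2 was the only member called, higher in sph/sph, and limma-voom and the comparison without the A libraries did not call it. Members with an unadjusted p under 0.05 numbered 5 of 33, among them Gzmk, Cd8a and Cd4. Of all 13844 genes tested 1817 had such a p, a similar share. Gzmk had 0.133, 0.415 and 0.0582 CPM across the sph/sph saline libraries and 0 counts in WT saline, at least 3.52-fold higher in sph/sph against the floor of 3 counts. B was the highest sph/sph saline library for 31 of 35 members, counting ties, as for Gzma with 3.32 CPM in B against 0.997 and 0.814 CPM in A and C. The share of all genes highest in B is not given, so this too cannot be read as particular to the members. Counts of 0 in the 3 libraries of a group allow up to 0.0611 CPM in sph/sph saline and 0.0579 CPM in WT saline; intervals and floors cover counting error only.

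The interaction asks whether the response to anti-CD40 was smaller in sph/sph than in WT. It was called for Il12rb2 at -5.54 ± 0.64 (adjusted p = 0.00106), for Gzma at -7.12 ± 1.67 (adjusted p = 0.0409) and for Nkg7 at -5.97 ± 1.46 (adjusted p = 0.0484). For 31 of the 33 members the difference was negative, and 20 had an unadjusted p under 0.05, against 2603 of all 13844 genes tested. DESeq2 called 18 members and limma-voom 1. Without sph/sph anti-CD40 C 10 were called, and without WT anti-CD40 B, without WT anti-CD40 C or without the 4 A libraries 1. Prf1 (-8.47 ± 2.37 (adjusted p = 0.0783)), Gzmb (-6.02 ± 1.72 (adjusted p = 0.0846)), Ifng (-6.22 ± 1.58 (adjusted p = 0.0563)) and Cd8a (-5.52 ± 1.40 (adjusted p = 0.0559)) were not called.

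**Figure D4:**
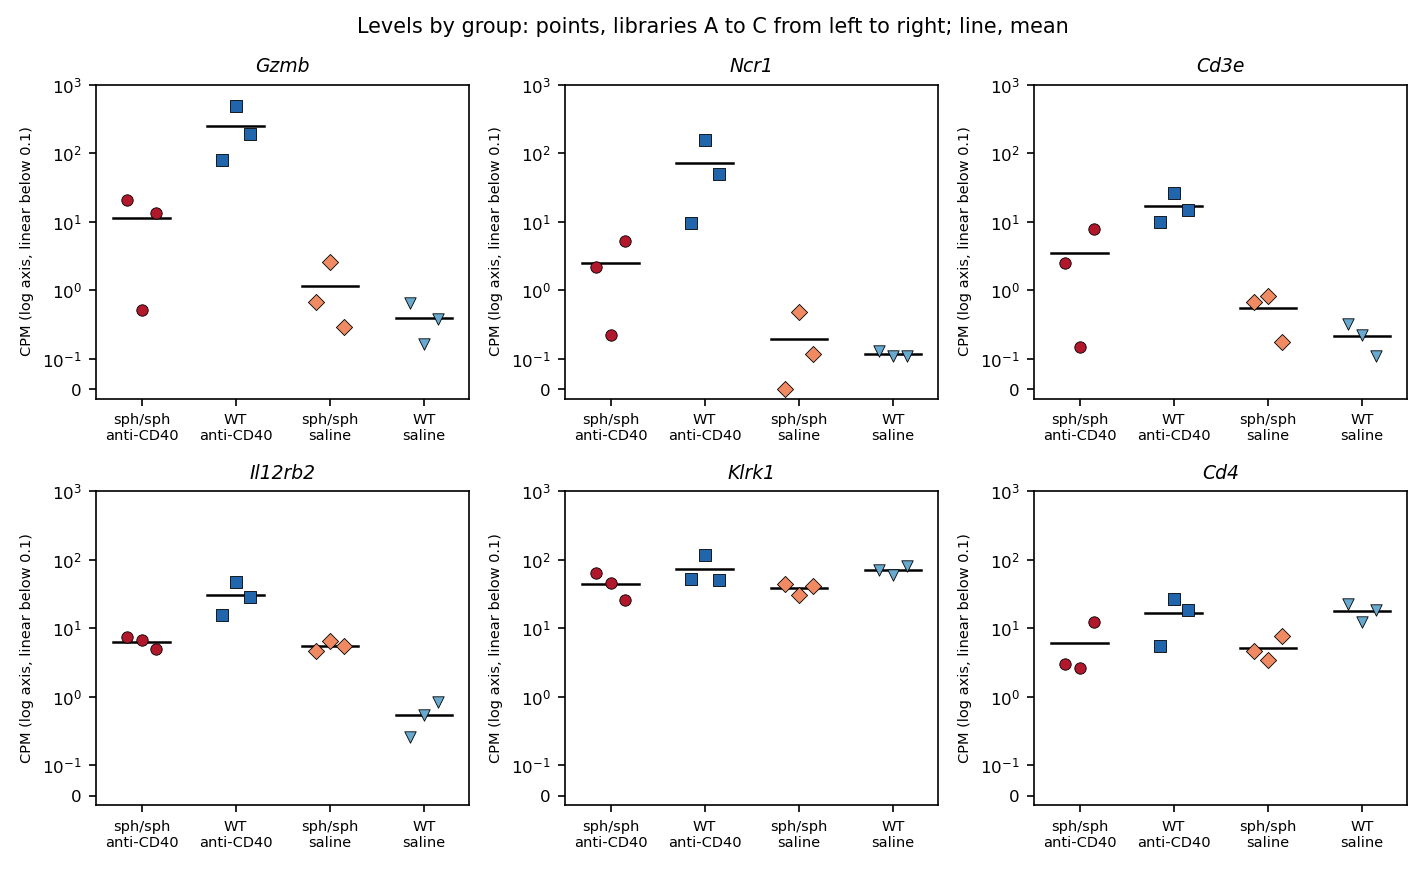
CPM of 6 genes in each library (points, A to C from left to right in each group; log axis, linear below 0.1) with the group mean as a line. Gzmb, Ncr1 and Cd3e are highest in WT anti-CD40 and spread over the sph/sph anti-CD40 libraries, Il12rb2 is lowest in WT saline, and Klrk1 and Cd4 overlap between WT anti-CD40 and WT saline.

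Other genes of NK and T cells, taken from lists apart from the 35, moved with them in WT. Of 15 tested among 20 further NK cell receptor genes, 13 were called higher with anti-CD40 in WT (median log2 fold 5.56) and 7 lower in sph/sph than in WT under anti-CD40 (median -3.20), or 14 without sph/sph anti-CD40 C. Klrb1b, an inhibiting relative of NK1.1, rose by 5.56 ± 0.87 in WT (adjusted p = 0.000932), and Cd226, the activating receptor DNAM-1, by 5.48 ± 0.90 (adjusted p = 0.00122). Styk1 and Klri2 had the lowest adjusted p between genotypes, at -4.91 ± 1.00 (adjusted p = 0.00867) and -5.20 ± 1.06 (adjusted p = 0.00874). Sh2d1b1, an adaptor of SLAM receptors, was the only one called under saline, higher in sph/sph by 3.60 ± 0.79 (adjusted p = 0.0465), and without the 4 A libraries it was not called (adjusted p = 0.243). The next list holds T cell genes outside the members, among them receptor constant regions, costimulatory receptors and transcription factors. Of 23 further T cell genes all were tested, 20 rose with anti-CD40 in WT (9 without the 4 A libraries) and Icos fell by 1.21 ± 0.40 on the log2 scale (adjusted p = 0.0348). Ubash3a and Trbc1, a constant region of the T cell receptor beta chain, rose by 7.17 ± 1.35 (adjusted p = 0.00264) and 6.27 ± 1.2 (adjusted p = 0.00285). Ubash3a encodes a phosphatase family protein that dampens T cell receptor signalling. Between genotypes under anti-CD40 2 of the 23 were called, Sh2d1a at -3.73 ± 1.12 (adjusted p = 0.0447) and Cd40lg, the ligand of CD40, at -3.40 ± 1.00 (adjusted p = 0.0491). That count was 19 without sph/sph anti-CD40 C and 0 without the 4 A libraries. Granules also need proteins that pack, move and release their contents. Of 18 further granule and death ligand genes 14 were tested; 9 rose and 1 fell with anti-CD40 in WT, and 8 were lower in sph/sph under anti-CD40 (3 without the 4 A libraries). Cst7, the gene of cystatin F, an inhibitor of the proteases that activate granzymes, rose by 10.26 ± 0.84 in WT (adjusted p = 2.84e-05) and was the only one of the list called in sph/sph, by 4.55 ± 0.66 (adjusted p = 0.0237). In sph/sph the list had 3 calls without sph/sph anti-CD40 C and 0 without the 4 A libraries. Srgn, the granule proteoglycan serglycin, and Tnfsf10, the death ligand TRAIL, were lower in sph/sph under anti-CD40 by -2.30 ± 0.27 (adjusted p = 0.000459) and -3.18 ± 0.48 (adjusted p = 0.00184). Macrophages make several genes of this list too, Srgn and Cst7 among them.

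Signals that act on T and NK cells rose in WT in the same preparations. Of 17 such genes 14 were tested, and 10 were called higher with anti-CD40 in WT (6 without the 4 A libraries). In sph/sph edgeR called 0, with 6 at an unadjusted p under 0.05, whereas DESeq2 called 5, and 5 were called without sph/sph anti-CD40 C. Il12b, a subunit of interleukin-12, rose by 7.31 ± 1.22 in WT (adjusted p = 0.00138) and was lower in sph/sph than in WT under anti-CD40 by -4.90 ± 1.06 (adjusted p = 0.0113). Cxcl11, a ligand of the homing receptor CXCR3, rose by 8.83 ± 1.23 in WT (adjusted p = 0.000522) and differed between genotypes by -4.47 ± 0.98 (adjusted p = 0.0119); without the 4 A libraries neither was called between genotypes (adjusted p = 0.113 for Il12b and 0.0893 for Cxcl11). Il18, which acts with interleukin-12 on NK cells, went the other way, at -2.48 ± 0.43 in WT with anti-CD40 (adjusted p = 0.0016) and 3.55 ± 0.44 in sph/sph over WT (adjusted p = 0.000678). The list summed to 2195, 1848 and 308 CPM in sph/sph anti-CD40 A, B and C, against 7267, 5597 and 9121 CPM in WT anti-CD40 A, B and C. Saline libraries summed to 360 to 539 CPM. Sph/sph anti-CD40 C lay below the saline range, while A and B lay above it. The order of the WT anti-CD40 libraries in this sum, with B lowest, was not their order in the T and NK cell genes, with B highest.

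Among homing receptors of lymphocytes, Itga2, an integrin of NK cells, rose with anti-CD40 in WT by 8.98 ± 1.61 (adjusted p = 0.00204). Cxcr6, which holds NK and T cells in the liver sinusoids, was lower in sph/sph than in WT under anti-CD40 by -3.87 ± 1.02 (adjusted p = 0.0263), a call lost without the 4 A libraries (adjusted p = 0.184). NK cell receptors read ligands on the surface of other cells. Of 10 tested ligands of NK cell receptors, 6 rose in WT (3 without the 4 A libraries); Pvr and Nectin2, ligands of DNAM-1, rose by 2.77 ± 0.32 (adjusted p = 0.000168) and 2.30 ± 0.27 (adjusted p = 0.000175). Both were among 4 called lower in sph/sph under anti-CD40, Nectin2 by -1.79 ± 0.26 (adjusted p = 0.00152) and Pvr by -1.40 ± 0.30 (adjusted p = 0.0111). That count was 2 without sph/sph anti-CD40 C and 1, Nectin2, without the 4 A libraries. In the sph/sph response 0 ligands were called, or 2 higher without sph/sph anti-CD40 C. Interferon-gamma acts through its receptor and the JAK and STAT proteins. Of 7 genes of interferon-gamma signalling 4 rose in WT (2 without the 4 A libraries), led by Jak2 at 1.54 ± 0.16 (adjusted p = 8.89e-05) and Socs1, its feedback inhibitor, at 5.06 ± 0.74 (adjusted p = 0.000652), and Ifngr1, the receptor chain, fell by 2.36 ± 0.20 on the log2 scale (adjusted p = 3.36e-05). In sph/sph edgeR called 0 of the 7, with 4 at an unadjusted p under 0.05. DESeq2 called 2 higher and 1 lower there, and without sph/sph anti-CD40 C edgeR called 4 higher and 1 lower. The 7 genes summed to 2723, 2633 and 1359 CPM in sph/sph anti-CD40 A, B and C, and to 2568 to 3331 CPM in WT anti-CD40. Under anti-CD40 Jak2 and Socs1 were lower in sph/sph than in WT, by -1.07 ± 0.16 (adjusted p = 0.0015) and -2.96 ± 0.66 (adjusted p = 0.013), and Ifngr1 was higher, by 1.06 ± 0.19 (adjusted p = 0.0048), the last call being lost without the 4 A libraries (adjusted p = 0.0553). The response in sph/sph minus that in WT was called for Jak2, at -0.98 ± 0.22 (adjusted p = 0.0343), and for Ifngr1, at 1.55 ± 0.27 (adjusted p = 0.012), and neither was called without the 4 A libraries. No gene of a list of 12 for cell division was called by edgeR in any of the comparisons, while DESeq2 called 1 in WT and 1 had an unadjusted p under 0.05 in each genotype, at median log2 folds of 0.89 in WT and 0.98 in sph/sph with anti-CD40.

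Markers of other cells moved in WT anti-CD40 as well, beside the T and NK cell genes. Of 6 plasmacytoid dendritic cell markers 5 were called higher with anti-CD40 in WT (2 without the 4 A libraries), with sums of 107 to 357 CPM in WT anti-CD40 against 68.9 to 112 CPM in WT saline. Neutrophil markers were called higher for 5 of 7 (3 without the 4 A libraries), with sums of 208 to 641 CPM against 155 to 193 CPM. Monocyte markers were called higher for 4 of 8 (2 without the 4 A libraries and 7 without sph/sph anti-CD40 C), with sums of 758 to 2157 CPM against 239 to 379 CPM. In sph/sph their sums were 487.5 to 1780 CPM with anti-CD40 and 135.6 to 360.0 CPM with saline. There edgeR called 1 of the 8 higher, or 7 without sph/sph anti-CD40 C and 0 without the 4 A libraries. DESeq2 called 6, and 7 had an unadjusted p under 0.05. Between genotypes under anti-CD40 0 of the monocyte markers were called. The part of these cells in the T and NK cell genes was not tested. In sph/sph anti-CD40 B, monocyte markers summed to 1120 CPM, while the members other than Klrk1 and Cd4 summed to 13.5 CPM, against 12.5 to 18.8 CPM in WT saline.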

How the data were processed

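Per the labels, liver cells of 12 mice were enriched with anti-F4/80 beads after collagenase digestion, and sequenced from stranded TruSeq libraries. The deposited values are whole-number read counts per gene, not normalized by the authors as far as the values show. The submitters' processing notes name featureCounts, SAMtools 1.9, STAR 2.7.0e and the build GRCm38.p5. What each tool did, the annotation used, whether counting used strand and how multiply matching reads were handled is not given in the sources used here. Counts of members with an exon of another gene on the opposite strand (Xcl1, Il12rb2, Eomes, Cd3e, Cd247, Skap1) are therefore uncertain. The columns carry no replicate number and call the control genotype heterozygous where the labels call it wild type. Letters A to C name libraries in column order and pair nothing; the A libraries of both genotypes share an identification number within a treatment, whose meaning is not given. The design text counts separate mice.

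Of 25700 gene identifiers 25587 matched a symbol. edgeR 4.0.16 in R 4.3.3 was used: filterByExpr by group (13844 genes), TMM scaling, robust quasi-likelihood dispersion, 1 mean for each group over the 12 libraries (common biological coefficient of variation 0.382), F tests and Benjamini-Hochberg adjustment. The SE of a log2 fold is its size divided by the square root of F. Levels are CPM on TMM-scaled library sizes. DESeq2 1.42.0 and limma-voom (limma 3.58.1) were alternatives. On simulated counts for the WT response (13844 genes), 76% of 4-fold and 8% of 2-fold changes were recovered. The simulation gave every gene the same spread and changed only genes above a minimum count. These shares therefore do not apply to members with few counts or a wider spread. Shared 50-base stretches and exon lengths came from GENCODE M21, promoter windows from RefSeq. Every member is named, with its values; of the other lists, the counts and the 2 genes with the lowest adjusted p in a direction. The counts of the list of homing receptors and some of its genes are not reported here. Members and lists were chosen with earlier results of these data known. Ratios carry exact 95% counting intervals.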

Additional observations from a re-analysis of the deposited data

Results flagged for a closer look

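The response to anti-CD40 differed between genotypes by the test of the difference itself in 3 members, as the response in sph/sph minus that in WT on the log2 scale. The difference was -7.12 for Gzma, from 2.15 in sph/sph and 9.26 in WT, and it was lost in 10 of 12 repeats that each left out 1 library. For Nkg7 it was -5.97, from 2.20 in sph/sph and 8.17 in WT, also lost in 10 of 12. For Il12rb2 it was -5.54, from 0.21 in sph/sph and 5.75 in WT, and it held in all 12. Il12rb2 was already higher in sph/sph than in WT under saline, at a log2 fold of 3.31 ± 0.47.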

How the results depend on the processing

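No paired analysis was possible because the columns of the count table carry none of the labels' replicate numbers, and the identification numbers in them are shared by only 1 library of each genotype within a treatment. A term that sets the A libraries apart was fitted instead. The count of 30 members called higher in WT stayed between 29 and 32 when 1 library was left out, and it was 26 with limma-voom. Repeats that gave 31 or 32 tested 35 members instead of 33, since Klra4 and Klra8 entered through WT anti-CD40 libraries. The 12 members that could be tested only through WT anti-CD40 are all among the 30. That the count held is therefore no independent support for the rise. The count called lower in sph/sph than in WT under anti-CD40, 20 in the report, ran from 7 (without WT anti-CD40 B) to 33 (without sph/sph anti-CD40 C) and was 4 with only the 6 libraries compared and 10 without the 4 A libraries. DESeq2 called 8 members higher in the sph/sph response. Between genotypes under saline the 1 higher call became 0 with limma-voom and 0 without the A libraries, and 2 members were called lower with only the 6 libraries compared. Of the interaction's 3 lower calls, 1 was left without the low-count filter, with limma-voom, with a term for Y chromosome genes or without the A libraries; DESeq2 called 18, and leaving out 1 library gave 1 to 10. The Y chromosome term and the A libraries' removal were added after seeing the data. No member changed sign in a called value under any alternative run. Why these counts moved was not tested. Members near 0 limit the depth of statement in saline and in sph/sph anti-CD40 B.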
